A study of Homo sapiens with 34 samples.

Results

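The 7 genes of the INK4 and CIP/KIP families of cyclin-dependent kinase (CDK) inhibitors were followed in 3 human B-cell acute lymphoblastic leukemia (B-ALL) cell lines. The members were taken by symbol, CDKN1A, CDKN1B and CDKN1C for CIP/KIP and CDKN2A, CDKN2B, CDKN2C and CDKN2D for INK4, from the 6 deposited tables. The tables listed 17587 genes in all and 13307 in every table. All 7 members were listed in at least 1 table and 5 of them in all 6. CDKN2A and CDKN2B, which were not in every table, are described apart.

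NALM-6 carries the ETV6-PDGFRB fusion, RS4;11 carries MLL-AF4 and BV-173 carries BCR-ABL. In each line, a lentivirus expressing an shRNA against CCND3 (shCCND3) was set against one expressing a scrambled shRNA, infected cells being sorted on day 4. Palbociclib, a drug that blocks the kinases CDK4 and CDK6, was given at 1 µM for 3 days and set against DMSO. The series held 34 poly(A) RNA-seq samples in 12 groups of 3, except NALM-6 shCCND3 and BV-173 DMSO with 2 samples each. Each line is a single established culture, so the samples of a group are repeats within a line, and 1 shRNA against CCND3 is given in the labels. The 6 comparisons had no control group in common.

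Each table gave 1 level per gene and group, a value standing for the whole group. How it was made from the samples, how many samples it covers and how it was scaled are not stated. Spread between samples and depth per sample are therefore unknown, no level has an error, and no difference below was tested. A difference of at least 1.5-fold between the levels of a pair (0.585 on the log2 scale) is used throughout as a mark of size, not of significance. The sums over genes were 1.78e+07 to 2.08e+07 per group, 14763 to 15944 genes were listed per table, and the median log2 ratio over all genes lay between -0.01 and 0.06. In bulk RNA, fewer cells of a type and less RNA per cell cannot be told apart.

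INK4 proteins bind CDK4 and CDK6 and keep them from their D-type cyclins. CIP/KIP proteins bind a wider range of cyclin and CDK complexes, block those that hold CDK2, and also take part in assembling cyclin D with CDK4 and CDK6. Through these kinases the inhibitors keep retinoblastoma family proteins unphosphorylated and E2F factors silent. In B-ALL the CDKN2A and CDKN2B region of chromosome 9 is among the regions most often lost, and CDKN2C is known for halting the cycle of B cells that become plasma cells.

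None of the members was 1.5-fold higher in a treated group in any of the 6 comparisons, while 13 of the 35 listed pairs of a member and a comparison were 1.5-fold lower. Of the 13, 2 were of CDKN1C at levels of 13.9 or less, and the 35 include CDKN2A and CDKN2B at 4.24 or less. CDKN2C (p18), CDKN2D (p19) and CDKN1B (p27) were each 1.5-fold lower in 3 of the 6 comparisons, and CDKN1A (p21) and CDKN1C in 2. By direction alone, the treated level was lower in 6 for CDKN2C, 5 for CDKN2D, CDKN1B and CDKN1C, and 4 for CDKN1A. CDKN2C had the widest difference, being 5.10-fold and 5.45-fold lower with palbociclib in NALM-6 and BV-173. CDKN2D had its widest differences with the knockdown, in NALM-6 and RS4;11. Of all genes, 8.47%, 9.72% and 4.78% were 1.5-fold lower with the knockdown and 14.9%, 15% and 11.9% with palbociclib (NALM-6, then RS4;11, then BV-173). In the same order 7.82%, 9.73% and 3.32% were 1.5-fold higher with the knockdown and 21.4%, 16.7% and 13.6% with palbociclib.

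The promoter windows of CDKN2C are shown since this gene had the widest differences and has 3 start sites in RefSeq, and that of CDKN2D since it is the other INK4 gene with a sizeable level. Each window runs from 250 bases before to 50 bases after a start site, 5′ to 3′ on the gene's strand, from RefSeq on GRCh38.p14. Capitals mark the E-box CACGTG and the GC box GGGCGG or its reverse CCGCCC. The CDKN2C windows are at chr1:50960495-50960794, chr1:50968456-50968755 and chr1:50969995-50970294 on the plus strand, and the CDKN2D window is at chr19:10568930-10569229 on the minus strand.
CDKN2C first start: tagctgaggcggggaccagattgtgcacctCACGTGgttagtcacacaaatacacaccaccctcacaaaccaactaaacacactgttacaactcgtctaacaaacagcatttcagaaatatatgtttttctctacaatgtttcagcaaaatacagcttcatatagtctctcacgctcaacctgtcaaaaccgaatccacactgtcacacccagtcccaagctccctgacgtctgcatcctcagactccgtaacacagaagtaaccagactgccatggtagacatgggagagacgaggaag
CDKN2C second start: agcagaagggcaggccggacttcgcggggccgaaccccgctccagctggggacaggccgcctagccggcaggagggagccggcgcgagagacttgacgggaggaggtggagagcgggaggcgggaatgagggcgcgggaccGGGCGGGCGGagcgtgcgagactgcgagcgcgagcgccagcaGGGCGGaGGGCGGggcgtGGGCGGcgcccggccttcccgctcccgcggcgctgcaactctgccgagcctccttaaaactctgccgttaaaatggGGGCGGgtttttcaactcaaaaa
CDKN2C last start: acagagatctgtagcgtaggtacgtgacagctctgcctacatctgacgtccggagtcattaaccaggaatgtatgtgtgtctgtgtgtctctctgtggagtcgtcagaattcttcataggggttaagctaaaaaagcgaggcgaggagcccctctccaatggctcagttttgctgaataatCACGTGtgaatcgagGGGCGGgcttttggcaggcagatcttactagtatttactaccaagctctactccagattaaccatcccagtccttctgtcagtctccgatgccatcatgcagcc
CDKN2D: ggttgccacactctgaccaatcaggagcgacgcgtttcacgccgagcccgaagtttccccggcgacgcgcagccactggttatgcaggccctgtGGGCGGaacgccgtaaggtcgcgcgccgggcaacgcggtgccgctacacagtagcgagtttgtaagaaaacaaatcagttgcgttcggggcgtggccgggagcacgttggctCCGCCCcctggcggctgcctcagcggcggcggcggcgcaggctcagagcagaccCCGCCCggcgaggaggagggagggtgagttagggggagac

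The middle CDKN2C window held 6 GC boxes, the first pair of which overlap, and the CDKN2D window held 3. An E-box was present in the first and last CDKN2C windows, at -220 to -215 and -69 to -64 from the start site. In all, 9 windows of 6 members were in the table. GC boxes were found in 7 of these 9 windows and in 45% of the 35116 windows of all genes, and E-boxes in 2 of 9 and in 7.26%. Both strands were also searched for the E2F words TTTCCCGC, TTTGGCGC, TTTCGCGC and TTTGCCGC, the FOXO word GTAAACA and the CHR words TTTGAA and TTCGAA, which were in 3.31%, 3.42% and 16.4% of all windows and in 0 of the 9. These letters not being in a short window says nothing about binding of a factor elsewhere. The tables do not tell the start sites apart, so a level of CDKN2C covers all of its transcripts.

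The knockdown was seen first in its target. CCND3, a D-type cyclin that activates CDK4 and CDK6, had a level of 19498 in the scrambled group and 4727 in the shCCND3 group of NALM-6, which is 24.2% of control. In RS4;11 the levels were 16178 and 3353, or 20.7%, and in BV-173 they were 6619 and 2060, or 31.1%. With palbociclib the CCND3 log2 ratios were -0.36, -0.29 and -0.40 in the same order of lines. The target was thus past the fold with each knockdown and stayed within it with the drug.

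All 13 B-lineage markers were listed in all 6 tables, and 12 or 13 of them had a level of at least 50 in each group. Of 6 T-cell markers, 2 to 5 were listed, and LCK, which B-ALL cells also express, was the only marker at a level of at least 50. Among 6 myeloid markers, CD33 was above 50 in every group, at 90.6 to 1614, and 1 to 3 of the others were above 50 in each group, while CD14 stayed at 8.76 or below. Erythroid markers summed to 1.63 or less.

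Compared per kilobase of the length given in each table, so that genes of unlike length can be set side by side, CDKN1A was the leading inhibitor in each of the 12 groups by these lengths, though not in every group by another length given below. It made up 42.3% to 75.9% of the summed level per kilobase of the listed members. In the control groups CDKN1A stood above 98.1% and 97.8% of the listed genes per kilobase in NALM-6, above 98.3% and 97.0% in RS4;11 and above 85.6% and 87.7% in BV-173 (scrambled, then DMSO). The share of CDKN1B was 9.95% to 32.1%. The order below CDKN1A differed between lines: in RS4;11 CDKN2C ranked ahead of CDKN1B in all 4 groups, with shares of 21.7% to 30.5%, whereas in BV-173 CDKN1B ranked ahead, with 30.1% to 32.1%. In NALM-6 the shares of CDKN1B and CDKN2C in the scrambled group, 12.9% and 15.9%, and in the DMSO group, 15.4% and 16.0%, were close, while with palbociclib they were 15.8% and 7.84%. CDKN2D held 4.03% to 17.5%, and CDKN1C (p57) under 1% in every group, 0.905% at most. Which neighbours in this order differ beyond the spread between samples cannot be said, since there is 1 value per group. The length that fits CDKN2C depends on its transcript, and this moved its share in NALM-6 and BV-173 by more than 1.5 times: with the length of the canonical GENCODE transcript, 995 bases, it was 25.6% in the NALM-6 scrambled group and 21.6% in the BV-173 scrambled group, against 15.9% and 13.1% by the length in the tables. CDKN1B had 11.9% in the NALM-6 scrambled group by the canonical length, so that it was no longer close to CDKN2C there, nor with DMSO, at 14.4% against 24.6%. The leading gene also changed in RS4;11, where by the canonical length CDKN2C had 43.4% and CDKN1A 35.2% with palbociclib, and both had 42.0% with DMSO. Over the 12 groups CDKN1A then had 35.2% to 71.0%.

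**Figure D1:**
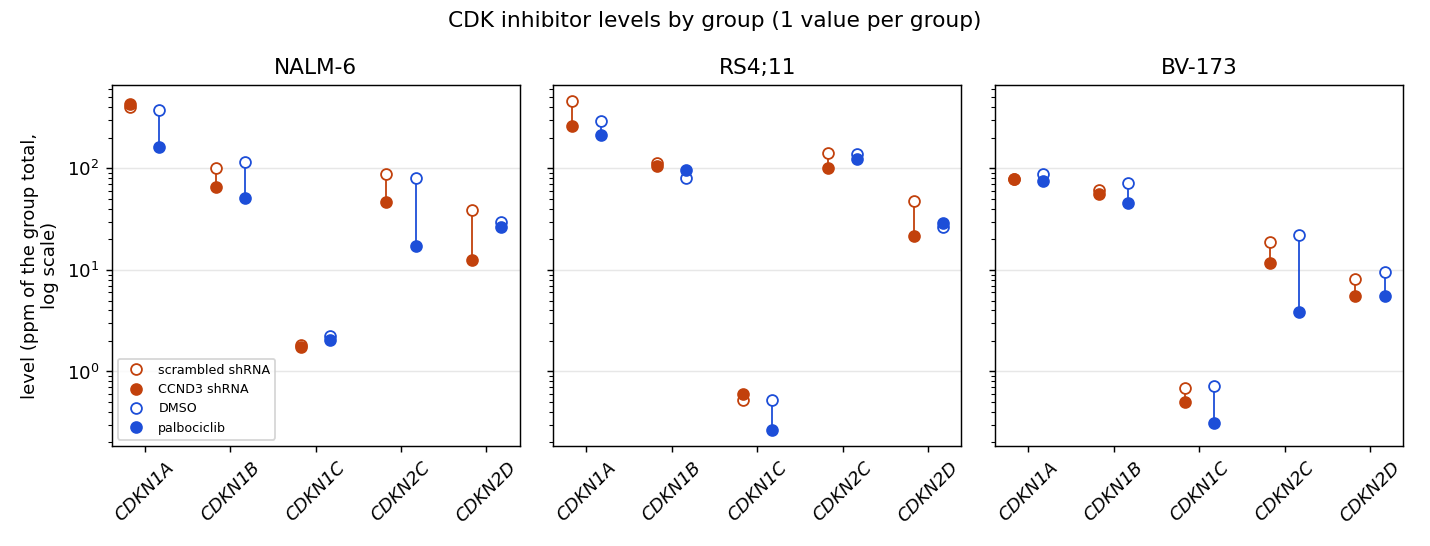
Level of the 5 members listed in all tables, in ppm of the summed levels of the group (log scale), in each line. Open circles are the control and filled circles the treated group, orange for the knockdown and blue for palbociclib, with a line joining a pair and 1 value per group, so no error is drawn. CDKN2C in BV-173 lay at 22.1 with DMSO and 3.88 with palbociclib, and CDKN1C lay below 3 in every group.

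CDKN1A (chr6:36676463-36687332, plus strand, in RefSeq on GRCh38.p14, as for the genes that follow) encodes p21, an inhibitor of CDK2 complexes and a known target of p53. Its level with the knockdown was 7393 (scrambled) and 7813 (shCCND3) in NALM-6, 8715 and 5059 in RS4;11, and 1531 and 1623 in BV-173. The log2 ratios were 0.08, -0.78 and 0.08, so that only RS4;11 was past the fold, at 1.72-fold lower. With palbociclib the level was 7393 (DMSO) and 2877 in NALM-6, 5793 and 4220 in RS4;11, and 1696 and 1530 in BV-173. The log2 ratios were -1.36, -0.46 and -0.15, and here NALM-6 alone was past the fold, at 2.57-fold lower. CDKN1A thus differed in another line with each treatment, and in BV-173 its level stayed within 1.11-fold of control with either one. Genes of like level are those whose mean of the control and treated levels was within 2-fold of that of the member. Among those for CDKN1A, 5.53% had a lower ratio with palbociclib in NALM-6 and 5.33% with the knockdown in RS4;11.

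CDKN1B (chr12:12717368-12722369, plus strand) encodes p27, which is held down in cycling cells largely by ubiquitin-dependent breakdown of the protein, a step that mRNA levels do not show. With the knockdown its level went from 1838 to 1193 in NALM-6, a log2 ratio of -0.62, and was 2148 and 2058 in RS4;11 and 1177 and 1156 in BV-173, at -0.06 and -0.03. With palbociclib it was 2231 and 913 in NALM-6 (log2 ratio -1.29, 2.44-fold lower), 1602 and 1944 in RS4;11 (0.28), and 1397 and 918 in BV-173 (-0.61, 1.52-fold lower). The 2 lines in which CDKN1B was past the fold with palbociclib were therefore NALM-6 and BV-173, and in RS4;11 the level with the drug was the higher one. The smallest of the differences past the fold, in BV-173, lies close to the limit, and 13.2% of genes of like level had a lower ratio there, against 5.61% in NALM-6.

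CDKN1C (chr11:2883218-2885775) encodes p57, the product of an imprinted gene better known from embryonic tissues. Its level was 33.3 and 31.6 with the knockdown in NALM-6, 9.91 and 11.6 in RS4;11, and 13.3 and 10.3 in BV-173. With palbociclib it was 43.1 and 36.6 in NALM-6, 10.3 and 5.32 in RS4;11, and 13.9 and 6.25 in BV-173. The ratios in RS4;11 (-0.96) and BV-173 (-1.15) were past the fold, but on levels of about 14 or less, where a few reads decide. With 10 added to each level they became -0.41 and -0.56.

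**Figure D2:**
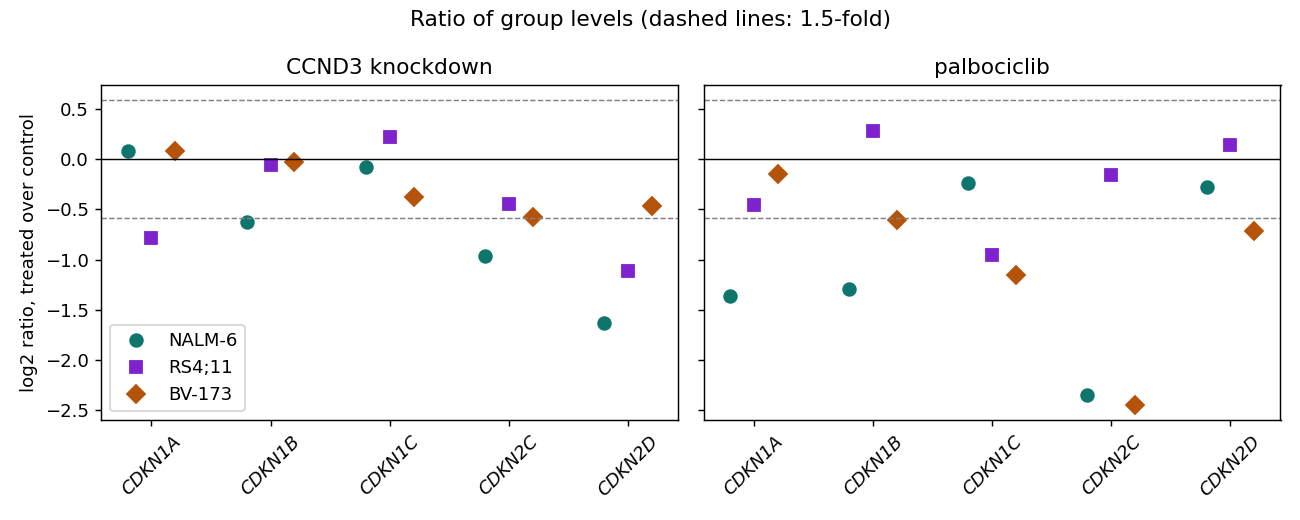
Log2 ratio of the treated over the control level for the 5 members listed in all tables, with the knockdown on the left and palbociclib on the right. Each point is 1 line, and the dashed lines mark 1.5-fold. No point lies above the upper dashed line, CDKN2C in NALM-6 and BV-173 with palbociclib is lowest, at -2.35 and -2.45, and the squares of RS4;11 with palbociclib lie above the lower dashed line except CDKN1C.

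CDKN2C (chr1:50960745-50974634, plus strand) encodes p18, an inhibitor of CDK4 and CDK6. With palbociclib its level was 1574 and 308 in NALM-6 and 426 and 78.2 in BV-173, which are log2 ratios of -2.35 and -2.45, or 5.10-fold and 5.45-fold lower. The line with the most CDKN2C in its controls, RS4;11, had 2724 and 2445, a log2 ratio of -0.16. Palbociclib was therefore accompanied by a much lower CDKN2C in 2 of the lines and by nearly the same level in the last. Of genes of like level, by the mean of both groups as above, 2.28% had a lower ratio in NALM-6 and 0.325% in BV-173, but 42.0% in RS4;11. With the knockdown the levels were 1629 and 833 in NALM-6 (-0.97, 1.96-fold lower), 2694 and 1982 in RS4;11 (-0.44) and 363 and 243 in BV-173 (-0.58). The BV-173 difference, 1.496-fold, fell just inside the limit. The knockdown ratio minus the palbociclib ratio on the log2 scale was 1.38, -0.29 and 1.86 in the order NALM-6, RS4;11, BV-173.

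CDKN2D (chr19:10566460-10568979, minus strand) encodes p19 of the INK4 family, which is distinct from the p14 product of CDKN2A. With the knockdown its level was 707 and 228 in NALM-6, 916 and 422 in RS4;11, and 157 and 114 in BV-173. The log2 ratios were -1.63, -1.12 and -0.47, the first pair being 3.10-fold and 2.17-fold lower. With palbociclib it was 578 and 475 in NALM-6 (-0.28), 522 and 574 in RS4;11 (0.14), and 185 and 113 in BV-173 (-0.71, 1.64-fold lower). CDKN2D thus ran the other way from CDKN2C in NALM-6, where the knockdown had the wider difference for CDKN2D and palbociclib for CDKN2C. The knockdown ratio minus the palbociclib ratio was -1.35, -1.25 and 0.25 in the same order of lines. Only 0.254% of genes of like level had a lower ratio with the knockdown in NALM-6, against 4.07% in RS4;11 and 10.8% in BV-173.

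The controls of a line also differed from each other. Set in ppm, parts in 1000000 of the group total, since the tables may not share a scale, the RS4;11 scrambled group had 1.56 times the CDKN1A, 1.39 times the CDKN1B and 1.82 times the CDKN2D of the DMSO group of this line. There CDKN1A was at 458 ppm with scrambled shRNA, 260 with shCCND3, 293 with DMSO and 212 with palbociclib. CDKN2D was at 48.1, 21.7, 26.4 and 28.8 in the same order. The shCCND3 levels of both genes lay closer to DMSO than to the scrambled control. In NALM-6 CDKN2D was at 38.6, 12.6, 29.7 and 26.7, so that there shCCND3 was the lowest of the 4 groups by a wide margin. The scrambled level of CDKN2D was 1.30 times the DMSO level in NALM-6, and the other ratios of scrambled to DMSO of the 5 members lay between 0.82 and 1.10. The part of infection and sorting in these levels was not tested.

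CDKN2A (chr9:21967752-21995324, minus strand), which encodes p16 and p14ARF, and CDKN2B (chr9:22002903-22009313, minus strand), which encodes p15, were among the lowest genes of the tables, with 6.79% to 20.2% of listed genes lower per kilobase in the control groups. CDKN2A was listed in 3 tables, at 0.816 (scrambled) and 0.763 (shCCND3) in NALM-6, at 0.163 and 0.152 in RS4;11, and at 1.93 (DMSO) and 2.88 (palbociclib) in BV-173. CDKN2B was listed in BV-173 only, at 4.24 and 3.00 with the knockdown and 3.56 and 3.17 with palbociclib. With all of these below 10, no fold is given. MTAP, the gene next to CDKN2A on chromosome 9, lay at 0.335 to 0.667 in NALM-6 and RS4;11 and at 1175 to 1516 in BV-173. BV-173 thus expressed the neighbour at a level of over 1000 while both INK4 genes lay below 5, and in the other lines the neighbour was below 1 too. Whether the region is present in these cells was not tested.

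Read per comparison, the members past the fold were set beside all genes of the table. With the knockdown in NALM-6, 3 of 6 listed members were 1.5-fold lower (CDKN1B, CDKN2C and CDKN2D), where 8.47% of genes were 1.5-fold lower and 7.82% higher. The RS4;11 pair had 2 of 6 (CDKN1A and CDKN2D), with 9.72% lower and 9.73% higher. In BV-173 it was 0 of 6, with 4.78% lower and 3.32% higher. When the totals of both groups were made equal, 2 of 6 passed (CDKN2C, and CDKN2B at levels below 5), since the shCCND3 total was the larger one. The median log2 ratio of the listed members was -0.36, -0.27 and -0.42 in the 3 lines in this order, against 0.01, 0.01 and -0.01 over all genes. These medians include CDKN2A (NALM-6 and RS4;11) or CDKN2B (BV-173), at levels below 5. Among the 5 members in all tables the middle ratio was -0.62 (CDKN1B), -0.44 (CDKN2C) and -0.37 (CDKN1C).

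With palbociclib, 3 of 5 listed members were 1.5-fold lower in NALM-6 (CDKN1A, CDKN1B and CDKN2C), where 14.9% of genes were lower and 21.4% higher. In RS4;11 only CDKN1C passed of 5, at the low levels given above, with 15% of genes lower and 16.7% higher. In BV-173 it was 4 of 7 (CDKN1B, CDKN1C, CDKN2C and CDKN2D), with 11.9% lower and 13.6% higher. The members' medians were -1.29, -0.16 and -0.61, against 0.06, 0.01 and 0.04 over all genes. Only the BV-173 median includes CDKN2A and CDKN2B, both at low levels. Among the other 5 members there the middle ratio was -0.71 (CDKN2D). The share of members past the fold in RS4;11 was near that of all genes. B-lineage markers differed as well in BV-173 with palbociclib, where 7 of 13 were 1.5-fold lower and 2 higher, against 2 lower and 3 higher in NALM-6 and 1 lower and 5 higher in RS4;11. Their part in the results above was not tested.

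Over the 3 lines, the median log2 ratio with the knockdown was 0.08 for CDKN1A, -0.06 for CDKN1B, -0.08 for CDKN1C, -0.58 for CDKN2C and -1.12 for CDKN2D. For palbociclib it was -0.46, -0.61, -0.96, -2.35 and -0.28 in the same order. The lines were far apart: CDKN2C with palbociclib ranged over 2.29 on the log2 scale and CDKN1B over 1.57. A median of 3 lines with such a range leans on each of them, and without NALM-6 that of CDKN2C with palbociclib was -1.30 and that of CDKN1B -0.16, while without RS4;11 that of CDKN1B was -0.95. With the knockdown the median of CDKN1A changed sign, to -0.35 without either NALM-6 or BV-173, and that of CDKN1C became 0.07 without BV-173.

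The summed INK4 level was then set against that of its targets CDK4 and CDK6, per kilobase. The ratio was 0.507 with scrambled shRNA and 0.280 with shCCND3 in NALM-6, 0.598 and 0.444 in RS4;11 and 0.129 and 0.0880 in BV-173. With the drug it was 0.474 (DMSO) and 0.185 in NALM-6, 0.463 and 0.421 in RS4;11 and 0.144 and 0.0488 in BV-173. It was lower in the treated group in each comparison, least so for palbociclib in the MLL-AF4 line, and BV-173 had the lowest ratio of the 3 lines in control cells. CDK4 and CDK6 together had log2 ratios from -0.34 to 0.09 over the 6 comparisons, and the INK4 sum had log2 ratios from -1.47 to -0.09. These values use the lengths in the tables, 1726 to 1871 bases for CDKN2C. They were not computed with its canonical length of 995 bases, which gives CDKN2C more weight in the sum.

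For the CIP/KIP members and their targets CDK1 and CDK2 the ratio ran upwards. With the knockdown it was 1.28 and 2.54 in NALM-6, 2.26 and 4.41 in RS4;11 and 0.562 and 0.892 in BV-173. For palbociclib it was 1.07 and 2.31 in NALM-6, 1.25 and 10.8 in RS4;11 and 0.657 and 1.71 in BV-173. The CIP/KIP sum itself was not higher past the fold in any comparison, with log2 ratios from -1.34 to 0.04, whereas the sum of CDK1 and CDK2 had log2 ratios from -3.39 to -0.63. The higher ratio thus came with less mRNA of the kinases, and the 8.62-fold difference in the MLL-AF4 line came with a CIP/KIP log2 ratio of -0.28.

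**Figure D3:**
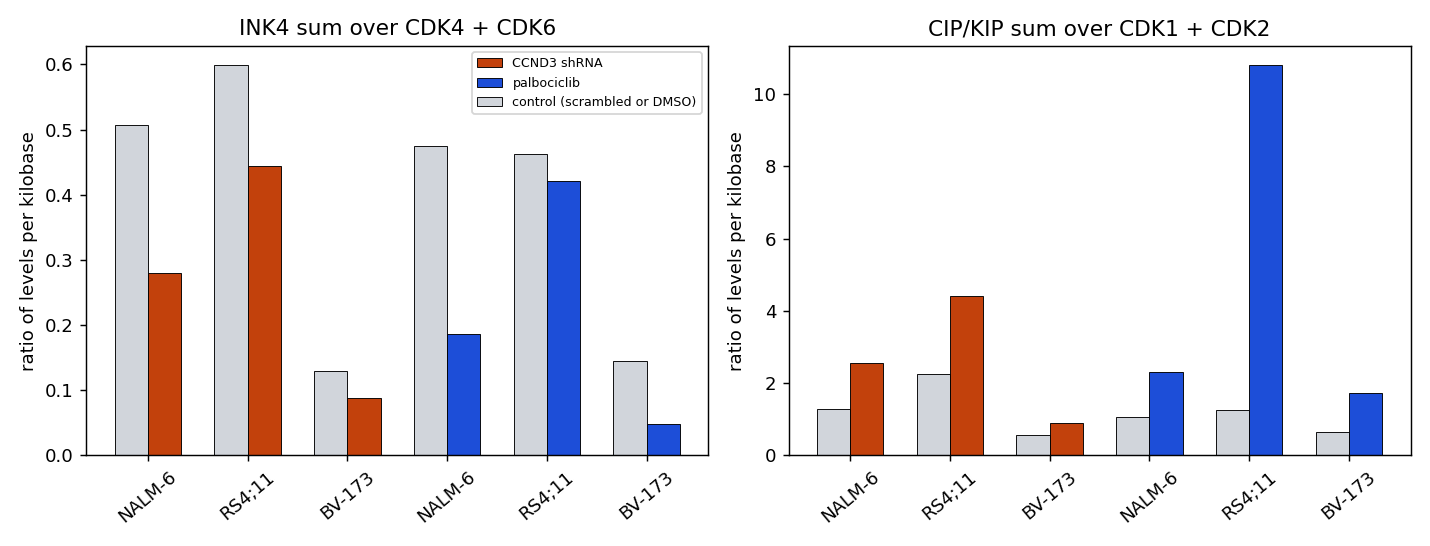
Summed INK4 level over CDK4 and CDK6 (left) and summed CIP/KIP level over CDK1 and CDK2 (right), each per kilobase, 1 value per group. In each line grey bars are the control and coloured bars the treated group, the first 3 pairs being the knockdown and the last 3 palbociclib. Each coloured bar is below its grey bar on the left and above it on the right, up to 10.8 in the MLL-AF4 line with palbociclib.

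The make-up of the inhibitor mRNA differed between the INK4 and CIP/KIP families in some comparisons and within a family in others. In NALM-6 with the knockdown, INK4 members went from 26.5% to 13.8% of the sum per kilobase, CDKN1A being at 60.3% and 75.9%. In RS4;11 the INK4 share was 32.2% in both groups, while CDKN1A was at 55.9% and 50.2% and CDKN1B at 11.8% and 17.5%, and in BV-173 it was 22.1% and 16.0%. The palbociclib pairs had 24.5% and 25.3% in NALM-6, 37.7% and 40.9% in RS4;11, and 22.2% and 11.4% in BV-173. In NALM-6 CDKN1A, CDKN1B and CDKN2C were all lower, and the direction of the INK4 share depends on the length used. By the canonical length each CIP/KIP share was higher with palbociclib, so the INK4 share was lower. CDKN1A then had 54.3% with DMSO and 56.6% with palbociclib, CDKN1B 14.4% and 15.8%, and CDKN1C 0.379% and 0.858%. Within the INK4 pair in NALM-6, CDKN2C and CDKN2D changed places by the lengths in the tables. With palbociclib CDKN2C held 7.84% and CDKN2D 17.5%, and with DMSO 16.0% and 8.52%. By the canonical length they were close with palbociclib, at 12.9% and 13.9%, against 24.6% and 6.31% with DMSO.

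**Figure D4:**
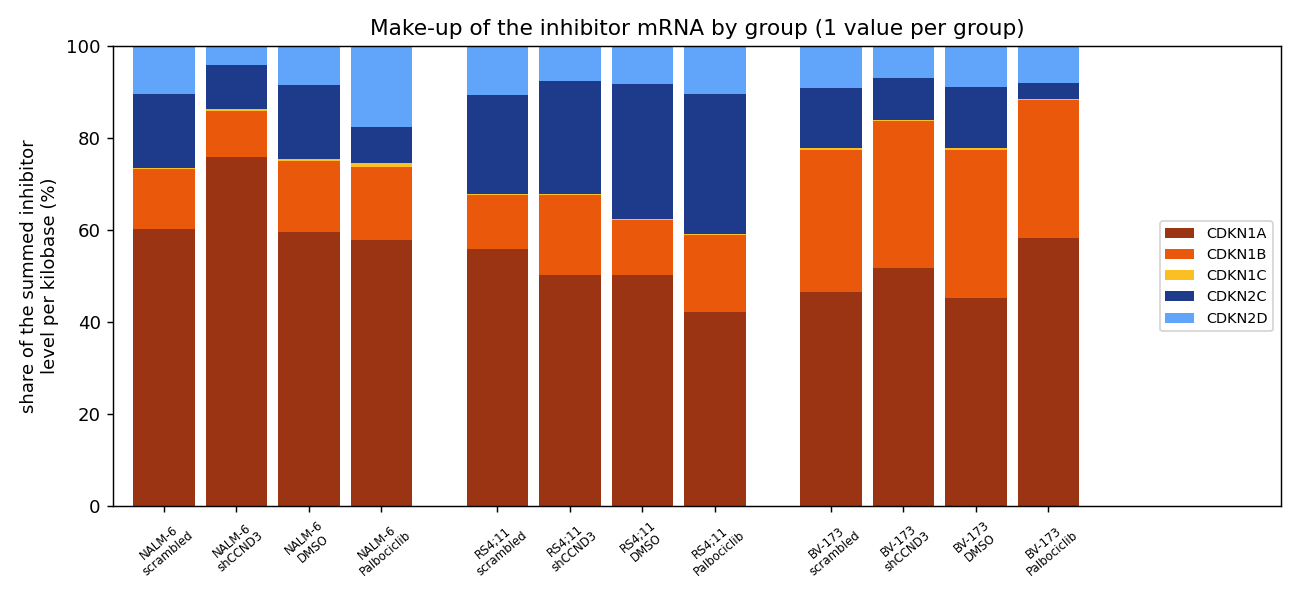
Share of each member in the summed inhibitor level per kilobase (%), as stacked bars for the 12 groups, 1 value per group. CDKN2A and CDKN2B, at 0.21% or less or not listed, are left out. By the lengths in the tables CDKN1A is the largest piece in each bar, CDKN2C is larger in RS4;11 than in the other lines, and CDKN2C shrinks to 3.47% with palbociclib in BV-173.

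The genes that act with the inhibitors were read from lists of their partners and regulators. For the list counts, 4.78% to 9.72% of all genes were 1.5-fold lower and 3.32% to 9.73% higher with the knockdown. With palbociclib 11.9% to 15% were lower and 13.6% to 21.4% higher. Of the cyclins A, B and E with CDK1 and CDK2, which CIP/KIP proteins bind, 6 of 7 listed were 1.5-fold lower with the knockdown in NALM-6, 8 of 8 in RS4;11 and 3 of 8 in BV-173, and 6 of 7, 7 of 8 and 6 of 8 with palbociclib, with none higher. Their median log2 ratios were -1.26, -1.58 and -0.48 with the knockdown and -2.96, -3.96 and -1.45 with palbociclib, while the medians over all genes given above were close to 0. Those lower in all 3 lines were CCNE2, CDK1 and CDK2 with the knockdown, and CCNA2, CCNB1, CCNB2, CCNE2, CDK1 and CDK2 with palbociclib. CDK1, the kinase of mitosis, had log2 ratios of -1.37, -1.65 and -0.65 with the knockdown and -3.20, -4.46 and -2.01 with palbociclib, the lines being in the order above. Of the D-type cyclins with CDK4 and CDK6, only CCND3 was lower in all 3 knockdown comparisons, and none of 5 was lower with palbociclib. CCND1 in RS4;11 was higher with both treatments, from 126 to 410 with the knockdown (log2 ratio 1.70) and from 112 to 787 with palbociclib (2.81), and lay below 10 in the other lines. CDK6 was higher in NALM-6 with palbociclib, at a log2 ratio of 1.09. CCND2, the D-type cyclin with its highest level in BV-173, was higher with palbociclib in all 3 lines, from 72.9 to 632 in NALM-6 and from 853 to 2257 in BV-173, but in RS4;11 only from 1.40 to 4.69, where both levels are too low for a fold.

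Downstream, E2F factors and pocket proteins were read in the same way. Of 8 E2F factors, 4, 5 and 4 were 1.5-fold lower with the knockdown and 4, 5 and 4 with palbociclib, the lines being in the same order, and 1 was higher in NALM-6 with either treatment. The list medians were -0.83, -1.36 and -0.50 and then -1.39, -1.93 and -1.07. E2F1, E2F2, E2F7 and E2F8 were lower in all 3 lines with both treatments. E2F1, an activator of S-phase genes, had log2 ratios of -1.24, -2.22 and -0.62 with the knockdown and -2.46, -4.06 and -1.69 with palbociclib. Among the 3 pocket proteins RBL1 was lower in all 6 comparisons, at -0.78 to -2.92. RS4;11 had the widest differences in CDK1 and E2F1 with palbociclib, while its CDKN1A, CDKN1B, CDKN2C and CDKN2D were all within the fold.

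The ubiquitin ligase parts that break down CIP/KIP proteins had 3, 4 and 1 of 12 lower with the knockdown and 5, 4 and 4 with palbociclib, and none higher, with medians between -0.38 and -0.11. The shares lower over all genes were 8.47%, 9.72% and 4.78% with the knockdown and 14.9%, 15% and 11.9% with palbociclib. DTL, the substrate receptor that takes p21 in S phase, was lower in all 3 lines with both treatments, and SKP2 and CKS1B, which take p27, were lower in all 3 lines with palbociclib. SKP2 had log2 ratios of -0.88, -1.32 and -0.60. Of 11 Polycomb genes, which keep INK4 genes silent in many tissues, 4, 4 and 2 were lower with the knockdown, with 1 higher in RS4;11, and 5, 4 and 7 with palbociclib. Their medians were -0.04, -0.18 and -0.28 and then -0.46, -0.47 and -0.72. EZH2, the methyltransferase of the complex, was lower in all 6 comparisons at -0.84 to -1.94. SUZ12 was also lower in all 6, and CBX2 and EED were lower in all 3 lines with palbociclib. CDKN2A and CDKN2B were below 5 in the tables that listed them.

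Among 20 other targets of p53, the known activator of CDKN1A, 0, 2 and 0 were lower and 3, 3 and 1 higher with the knockdown, in the same order of lines. With palbociclib 11 were lower and 2 higher in NALM-6, where CDKN1A was lower too, and the counts were 2 lower and 5 higher in RS4;11 and 5 lower and 6 higher of 19 in BV-173. Beside these, 14.9%, 15% and 11.9% of all genes were lower with palbociclib and 21.4%, 16.7% and 13.6% higher. With the knockdown 8.47%, 9.72% and 4.78% were lower and 7.82%, 9.73% and 3.32% higher. The list median with palbociclib in NALM-6 was -0.87, against 0.06 over all genes, and the other medians of the list lay between 0.01 and 0.16. It did not run as 1 block: BTG2, an antiproliferative gene, and TP53INP1 were higher in all 3 lines with palbociclib, with BTG2 at log2 ratios of 2.73, 2.22 and 2.17, while SESN2 and POLK were lower in all 3.

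Of 11 other targets of FOXO factors, which activate CDKN1B, 3, 4 and 2 were higher and 2, 1 and 0 lower with the knockdown, and 4, 4 and 5 were higher and 0, 2 and 2 lower with palbociclib. The medians lay between -0.04 and 0.34. SESN3 was higher in all 6 comparisons, at 0.97 to 2.36, and CITED2 was higher in all 3 lines with palbociclib. CDKN1B was not 1.5-fold higher in any of them. Of 19 transcription factors acting on CDKN genes, 18 or 19 were listed per comparison. Among them 0 to 2 were higher and 1 to 5 lower, with medians between -0.17 and 0.06. Over all genes, 3.32% to 21.4% were higher and 4.78% to 15% lower per comparison. SP1, a factor that binds GC boxes, was lower in all 3 lines with palbociclib at -1.30, -0.68 and -1.20.

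Among 15 other CDK-binding modulators, 8, 7 and 1 were lower with the knockdown and 6, 7 and 6 with palbociclib, while 1, 0 and 0 and then 3, 4 and 2 were higher. The medians were -0.66, -0.57 and -0.20 with the knockdown and -0.19, -0.41 and -0.27 with palbociclib. Shares of all genes were 4.78% to 9.72% lower and 3.32% to 9.73% higher with the knockdown. They were 11.9% to 15% lower and 13.6% to 21.4% higher with palbociclib. The inhibitory kinase WEE1 was lower in all 6 comparisons. With palbociclib the phosphatases CDC25A, CDC25B and CDC25C, the kinase PKMYT1 and the phosphatase CDKN3 were lower in all 3 lines, and SERTAD3 was higher. CDKN3, which shares its name with the inhibitors but is a phosphatase of CDK2, had log2 ratios of -3.53, -4.80 and -2.44, wider than any of the 7 members in the first pair of lines and level with CDKN2C in BV-173. Of 8 neighbours of the INK4 and CDKN1C loci, 3 to 5 were listed per table. NAP1L4, beside CDKN1C, was at 2155 to 3659 and past the fold with palbociclib in RS4;11, at -0.61.

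The genes with the pattern most like each member were sought over the 6 log2 ratios among 9039 genes with a level of at least 50 in all 12 groups, for the 3 members past the fold in at least 3 comparisons. Likeness was the root mean square difference of the 6 ratios. For CDKN1B these were ST3GAL4 (0.14), BCAT1 (0.24) and SLC25A25 (0.24). For CDKN2D they were BNIP2 (0.30), IGF2BP3 (0.32) and NEK7 (0.35). For CDKN2C they were OSCAR (0.46), ATF5 (0.47) and UBR7 (0.57), a wider distance than that of ST3GAL4 from CDKN1B. This distance depends on the size of the ratios, which were wider for CDKN2C. The Pearson correlation over the 6 ratios was 0.966 for OSCAR with CDKN2C and 0.969 for ST3GAL4 with CDKN1B. ATF5 with palbociclib was at -1.69, -0.50 and -2.54 in the same order of lines, against -2.35, -0.16 and -2.45 for CDKN2C. None of the other INK4 or CIP/KIP members was among these nearest genes. For CDKN1C, CDKN2A and CDKN2B this was fixed beforehand, since their low levels kept them out of the pool.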

How the data were processed

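Poly(A) RNA-seq libraries of 34 samples were used. The submitters' processing notes name Bowtie2, RSEM, DESeq2 and the hg38 build. Versions were not given in the sources used here. The authors deposited 6 tables, 1 per line and treatment, each with 1 level per gene and group. This deposited signal is 1 value for the group. How the samples were combined and scaled is not stated. It was treated as comparable within a table and not as a level per length. The authors' columns of log2 fold change, p-value, adjusted p-value and direction were not used. The deposited gene length, in bases, served for levels per kilobase.

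From the levels, log2 ratios (treated over control, no pseudocount), ppm of the group total and shares were computed with Python 3.11.15, numpy 2.4.6 and pandas 2.3.3, and plotted with matplotlib 3.10.9. A fold of 1.5 marked size, and with 1 value per group no test was made. The ratio script was tested on simulated data without noise, which checks its arithmetic only. Depth per sample is unknown, so no interval is given. No level was listed at 0. Where both levels were under 10 no fold is given.

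The members and gene lists were chosen with earlier results of these data known. Named were the 7 members, CCND3, list genes past the fold in the same direction in all 3 lines of a treatment or in lists of up to 8 genes, and the 3 nearest genes of each member past the fold in at least 3 comparisons. Alternatives were a fold of 2, centring on the median of all genes, equal totals, pseudocounts of 1 and 10, a mean level of at least 10, leaving out a line, and canonical transcript lengths of GENCODE. Promoter sequences are from RefSeq (GRCh38.p14) and cover 6 of the 7 members. Protein sequences were not used here. A gene of the Polycomb list is not reported here.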

Additional observations from a re-analysis of the deposited data

How the results depend on the processing

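No member was 1.5-fold higher in any comparison under any of the 6 alternatives to the fold, scaling, pseudocount or filter. The count of members 1.5-fold lower kept within 1.5 times except as follows. At a fold of 2 it was 1 for the knockdown in NALM-6, 1 for the knockdown in RS4;11, 0 for palbociclib in RS4;11 and 2 for palbociclib in BV-173, where fewer genes can pass by construction. With equal totals it was 2 for the knockdown in BV-173. For palbociclib in RS4;11 it was 0 with a mean level of at least 10 and 0 with a pseudocount of 10, since only CDKN1C had passed. No log2 ratio past the fold turned its direction. Equal totals moved 10 of the 30 ratios of the 5 members by more than 0.1, a pseudocount of 1 moved 2, a pseudocount of 10 moved 5, and centring moved 0. The canonical transcript length moved 8 of 60 shares by more than 1.5 times, all of them of CDKN2C.

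No paired analysis was possible because each group has 1 pooled value, and leaving out samples was not run for the same reason. Differences within the spread between samples cannot be told from larger ones, and for CDKN1C, CDKN2A and CDKN2B the low levels limit any ratio.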
